A study of Drosophila melanogaster with 2 samples.

Results

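The genes described here are the translation initiation, elongation and release factor genes of Drosophila melanogaster, taken as the protein-coding genes whose annotated symbol begins with eIF, eEF or eRF. There were 54 of them among 13945 protein-coding genes of the main chromosomes. They were followed through peak lists from ChIP-seq of Rel-GFP, made with an anti-GFP antibody in whole larvae of the third instar, at the wandering stage, with both sexes pooled and age unknown. The 2 libraries were biological replicates 2 and 3 of 1 group, a transgenic line that stably carries Rel with GFP at its C terminus. The labels name neither a second genotype nor an infection or other treatment, so no contrast between groups was made. They do not give the promoter that drives the fusion or say whether untagged Rel is present.

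Translation factors carry the ribosome through initiation at the cap and start codon, elongation along the message, and release at the stop codon. Most are made in nearly all cells, and their amounts and modification set how much protein a growing larva makes. Rel, or Relish, is the NF-kB protein of the Imd pathway of fly immunity. It is cut on activation, after which its N-terminal part enters the nucleus and its C-terminal part stays in the cytoplasm. Anti-GFP binds the C-terminal tag, and the labels do not say which forms of Rel it recovers from chromatin.

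The authors deposited relaxed lists of 30000 regions, 1 for either replicate and 1 for the reads of both (the pooled list), ranked here by the peak caller's own signal value, relative to a control. A further list of 2133 peaks was kept by the authors after a test of reproducibility, the irreproducible discovery rate (IDR). It was identical to the first 2133 regions of the pooled list and is not a further measurement. A region was given to a gene if its summit lay inside the gene, up to 1000 bp upstream of it, or nearest to one of its annotated transcription start sites (TSSs). Signal values served for ranks inside each list alone. Library depth is unknown, because no read counts are given, and whole larvae do not tell cell types apart.

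The bases around the summits of the 3 translation factor peaks that ranked highest are shown first, because they lead the ranks of these genes in the pooled list and were among the first 2133 regions of both replicates. Each is the plus strand of dm6, in 1-based coordinates, at most 100 bases either side of the summit, with annotated UTR bases left off. The first lay upstream of eIF2Bbeta (chrX:2703853-2704000) and the second far upstream of eEF1gamma (chr3R:29214276-29214476). The third lay between the starts of eIF4EHP and its neighbour CG18428 (chr3R:24109038-24109238). None is printed with capitals, since none of the 5 elements searched around summits (described with the sequence results) was found in them.
eIF2Bbeta: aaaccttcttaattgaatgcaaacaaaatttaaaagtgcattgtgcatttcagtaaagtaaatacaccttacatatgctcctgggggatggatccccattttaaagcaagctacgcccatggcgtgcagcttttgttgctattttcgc
eEF1gamma: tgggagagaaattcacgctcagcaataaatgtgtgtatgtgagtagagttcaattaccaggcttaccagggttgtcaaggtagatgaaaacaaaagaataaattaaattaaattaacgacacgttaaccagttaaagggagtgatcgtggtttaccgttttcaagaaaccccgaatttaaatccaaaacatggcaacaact
eIF4EHP: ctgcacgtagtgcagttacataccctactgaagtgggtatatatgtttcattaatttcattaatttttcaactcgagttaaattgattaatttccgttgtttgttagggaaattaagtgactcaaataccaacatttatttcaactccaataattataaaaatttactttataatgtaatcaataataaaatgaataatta

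Translation factor genes carried a Rel-GFP peak about as often as other genes, and 2 of them were assigned peaks among the 5 strongest of the genome, at distances of 671 and 5796 bp from their own TSSs. An IDR peak was assigned to 6 of the 54 genes (11.1%, exact Clopper-Pearson 95% interval 4.19 to 22.6), against 12.5% of all protein-coding genes. The 6 were eIF2Bbeta, eEF1gamma, eIF4EHP, eIF4H1, eIF1A and eIF4A, with 7 peaks between them. By summits in the gene or upstream alone the count was 5 (9.26%), against 10.6% of all genes, with eEF1gamma lost. By nearest TSS alone it was also 5, against 10.2%, with eIF2Bbeta lost instead. Within 500 bp of an own TSS it was 3 (5.56%, interval 1.16 to 15.4), against 6.88% of all genes, namely eIF4A, eIF4EHP and eIF4H1. Intervals cover counting error only, and genes are not replicates.

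A q value under 0.05 was met by 4236 pooled regions, which include the IDR peaks. These regions reached 11 of the 54 genes (20.4%, interval 10.6 to 33.5), against 20.3% of all genes. The 5 genes added were eEF2, eIF5B, eEF5, eRF3 and eIF4E1. The whole pooled relaxed list, most of which lay above that q value, gave fewer translation factor genes than the background: 25 genes had a region (46.3%, interval 32.6 to 60.4), against 63.5% of all genes. In replicate 2 any region was assigned to 38 genes (70.4%), against 68.7%, and in replicate 3 to 29 genes (53.7%), against 67.2%. The relaxed lists have a fixed length, so a missing region does not show the absence of binding. Nor need it be weak in every list. Replicate 2 regions of eIF6 and eIF1, ranked 309 and 646, overlapped no pooled region (described below).

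Length moves with these shares. Translation factor genes are compact, with a median of 1967 bp (736 to 45884), against 2166 bp for all protein-coding genes. The 6 with an IDR peak had a median of 5227 bp, and the 48 without had 1955 bp. Of 28 translation factor genes under 2 kb, 2 had an IDR peak (7.14%), against 6.21% of all genes of that length. Of 16 between 2 and 5 kb, 1 had one (6.25%), against 9.99%. Of 8 between 5 and 20 kb, 2 had one (25%), against 22.4%, and of the 2 genes of 20 kb or more, 1 had one (50%), against 38.6%. No class departed from its background by more than its interval. For any pooled region, the genes under 2 kb had 10 of 28 (35.7%, interval 18.6 to 55.9), against 51.3%, and those of 2 to 5 kb had 8 of 16 (50%, interval 24.7 to 75.3), against 61.5%.

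**Figure D1:**
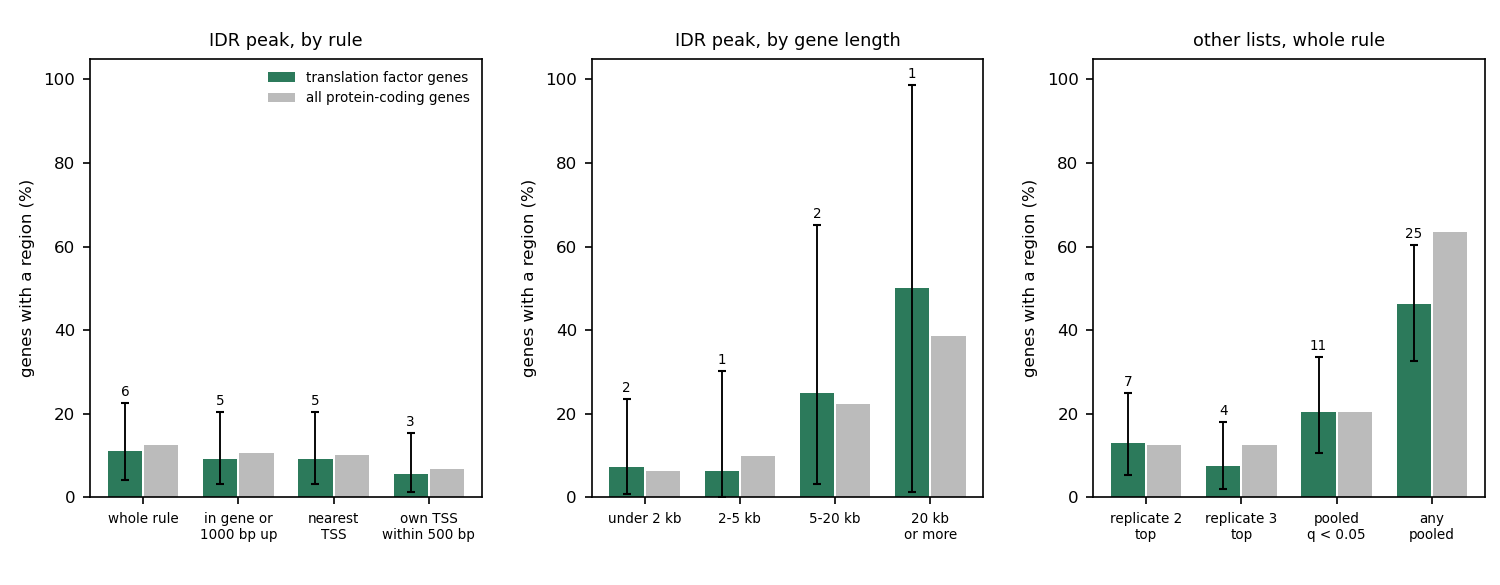
Share of genes with an assigned region (%), translation factor genes in green and all protein-coding genes in grey, by assignment rule, by gene length and in the other lists. Error bars are exact 95% intervals and numbers are counts of translation factor genes: 6 of 54 (11.1%) had an IDR peak, against 12.5% of all genes, and 25 (46.3%) had any pooled region, against 63.5%.

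The initiation factors that choose the start codon and join the subunits gave 1 gene with an IDR peak among 6, against 12.5% of all genes. It belonged to eIF1A (chr3R:18274665-18283005, plus strand), which with eIF1 keeps the small subunit scanning until the start codon is met. Its peak (chr3R:18275065-18275460) ranked 1400 in the pooled list, with a signal value of 88.4, and its summit lay in an intron, 565 bp from the nearest own TSS. The overlapping regions ranked 2260 in replicate 2 and 1187 in replicate 3, so only replicate 3 placed it among its first 2133. The start of Vps39, a gene of lysosomal trafficking transcribed the other way, lies 219 bp from that of eIF1A, and the peak was assigned to both.

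eIF5B, the GTPase that joins the large subunit, is 32320 bp long and had 21 pooled regions. Of these, 2 intronic ones had a q value under 0.05, ranked 3298 and 3972. The first lay 27703 bp from the nearest TSS of eIF5B and closer to one of its neighbour sty (7965 bp). They ranked 7980 and 11931 in replicate 2, and higher, 2635 and 3538, in replicate 3. At a TSS of eIF5B itself the best pooled region ranked 11955. eIF5, which triggers GTP hydrolysis by eIF2, had a pooled region at rank 10463, and eIF2D, an alternative factor for tRNA delivery, had none in any list.

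For eIF1 and eIF6 the replicates disagreed. eIF6, which keeps free large subunits from joining too early, had a region 111 bp before its TSS that ranked 309 in replicate 2, with a signal value of 93.2. eIF6 lies inside the gene ytr, which was assigned the same region. The region of eIF1 ranked 646 in replicate 2 (signal value 73.0). It lay 318 bp before the TSS of eIF1 and 63 bp from that of RpL28, a ribosomal protein gene transcribed the other way. Neither had an overlapping region in replicate 3 or in the pooled list. Such regions were rare: of the first 2133 regions of replicate 2, 46 (2.16%) overlapped no pooled region and 22 (1.03%) overlapped neither a pooled nor a replicate 3 region. For replicate 3 the matching counts were 45 (2.11%) and 13 (0.609%). Of the 46 in replicate 2, 17 were among its first 1066 regions, and the best ranked 34. Why such regions were missing from the pooled list was not tested.

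The eIF1 window is printed because it holds an element that recurs at the start sites of these genes. It covers chr3L:3222961-3223123 on the plus strand of dm6, without the RpL28 UTR. The capitals mark the 8-base DREF element TATCGATA, bound by the DNA replication-related element factor, a regulator of growth and housekeeping genes. It starts 22 bp after the summit, 296 bp before the TSS of eIF1 and 85 bp from that of RpL28. Of the first 2133 regions of replicate 2, 22 (1.03%) had TATCGATA in the window around the summit, and that of eIF6 did not. eIF1 is not counted below among the genes with the element at a start site, since its copy lies beyond the 250 bases searched there.
eIF1: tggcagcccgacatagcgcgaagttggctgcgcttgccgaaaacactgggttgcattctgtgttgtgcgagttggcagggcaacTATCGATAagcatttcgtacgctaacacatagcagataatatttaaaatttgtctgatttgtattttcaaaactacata

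The eIF2 complex, a trimer that brings the initiator tRNA to the ribosome, had no IDR peak at any of its subunits. None of eIF2alpha, eIF2beta, eIF2gamma and the separately acting eIF2A had an IDR peak, a pooled region with a q value under 0.05, or a region among the first 2133 of a replicate. The shares of all genes were 12.5%, 20.3% and, in either replicate, 12.5%. For IDR peaks the share was 9.99% of genes of 2 to 5 kb, and these 4 genes had a median length of 2467 bp. With 4 genes, counts of 0 do not set them apart from these shares. eIF2beta came closest, with a region 6 bp before its TSS that ranked 6302 in the pooled list, 3079 in replicate 2 and 7897 in replicate 3. eIF2alpha had only a replicate 2 region (rank 20915), eIF2gamma only replicate 2 regions (best rank 10234) and eIF2A only replicate 3 regions (best rank 15244).

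Its exchange factor eIF2B, which reloads eIF2 with GTP, was represented by 1 of the strongest peaks of the genome. The peak at eIF2Bbeta (gene chrX:2704571-2706217, plus strand) spanned chrX:2703756-2704037 and ranked 3 in the pooled list, with a signal value of 559 and a −log10 q of 3.00. It ranked 4 in replicate 2 (309) and 3 in replicate 3 (257). Its summit lay 671 bp before the TSS of eIF2Bbeta but only 48 bp from that of Ugalt, a UDP-galactose transporter gene transcribed the other way. The assignment to eIF2Bbeta therefore rests on the 1000 bp upstream stretch, and the 2 starts lie 719 bp apart. The other 4 subunit genes gave little. eIF2Bgamma had a pooled region at rank 14419 (6318 in replicate 3), eIF2Bdelta a replicate 2 region at rank 28373, eIF2Bepsilon a replicate 3 region at rank 16711, and eIF2Balpha none.

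None of the 16 eIF3 genes had an IDR peak, a pooled region with a q value under 0.05 or a region among the first 2133 of either replicate. For IDR peaks the background was 12.5% of all genes and 6.21% of those under 2 kb, and the eIF3 genes had a median length of 1831 bp. For a q value under 0.05 it was 20.3% of all genes, and for the first 2133 regions of either replicate 12.5%. eIF3 is the large complex that holds the small subunit, the tRNA and the cap-binding factors together. Only eIF3b (rank 6340), eIF3g1 (21768) and eIF3d2 (29440) had a pooled region at all, against 63.5% of all genes and 51.3% of those under 2 kb. eIF3b is a core subunit, and its region, 31 bp before a TSS, ranked 3508 in replicate 2 and was absent from the replicate 3 list. A replicate region without a pooled one was found at eIF3d1, eIF3f1, eIF3f2, eIF3g2, eIF3k, eIF3l and eIF3m. For eIF3m it ranked 4286 in replicate 2, at its promoter. No list had a region at eIF3a, eIF3c, eIF3e, eIF3h, eIF3i or eIF3j.

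The eIF4 group, which binds the cap and unwinds the message, had an IDR peak at 3 of its 13 genes, against 12.5% of all genes. Its median length was 3791 bp, and the background was 9.99% for genes of 2 to 5 kb. eIF4EHP (chr3R:24063077-24108960, minus strand) encodes a cap-binding protein that does not bind eIF4G and represses translation of its target messages. At 45884 bp it is the longest of the 54 genes, and it had 19 pooled regions. Its first peak (chr3R:24108940-24109335) ranked 350 in the pooled list, with a signal value of 154, and ranked 450 in replicate 2 (82.8) and 312 in replicate 3 (74.2). The summit lay 178 bp before the TSS, in the 376 bp between the starts of eIF4EHP and CG18428, which is transcribed away from it. In each replicate the summit was nearer CG18428. It lay 182 bp from the CG18428 TSS and 194 bp from that of eIF4EHP in replicate 2, and 81 and 295 bp in replicate 3. CG18428 was assigned the peak too.

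The second eIF4EHP peak (chr3R:24104962-24105357) ranked 873, with a signal value of 108, and ranked 1750 in replicate 2 and 1047 in replicate 3. It lay in the 5′ UTR of Syx1A, a syntaxin of synaptic vesicle fusion whose gene sits inside eIF4EHP, 603 bp from the Syx1A TSS and 3800 bp from that of eIF4EHP. Pooled regions at ranks 2259 and 2466, beside the same Syx1A TSS, and at rank 2357, in an intron 23722 bp into the gene, had q values under 0.05 without being IDR peaks.

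eIF4A (chr2L:5981764-5985909, plus strand) is the RNA helicase of the cap complex. Its peak (chr2L:5982278-5982673) ranked 1465 in the pooled list (86.8), 2086 in replicate 2 (44.2) and 2424 in replicate 3 (33.8), just outside the first 2133 there. The summit lay 113 bp after the second of 3 annotated TSSs. eIF4H1 (chrX:16448665-16454972, plus strand) is named for a helper of that helicase. Its peak (chrX:16448716-16449111) ranked 1296 (91.4), with rank 1210 in replicate 2 (56.9) and 2505 in replicate 3 (33.3). The summit was between the 2 annotated TSSs, 238 bp before the nearer. The start of CG34015 lies 363 bp from the first of them, and that gene was assigned the peak too.

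eIF4E1, the main cap-binding protein, had a region 153 bp before 1 of its 4 TSSs that ranked 4079 in the pooled list, with a −log10 q of 1.33. It ranked 2515 in replicate 2 and 13667 in replicate 3, the widest gap between the replicates among the genes with a q value under 0.05. The related eIF4E3, eIF4E4 and eIF4E7 had pooled regions at ranks 25212, 22916 and 10136, eIF4E5 had only replicate regions (best rank 16364, replicate 3), and eIF4E6 had none. The scaffold gene eIF4G1 had a pooled region at rank 20771 and eIF4H2 at 12472. eIF4G2 had only replicate 2 regions (best rank 18171), and eIF4B, a helicase helper of 15603 bp, had none in any list.

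**Figure D2:**
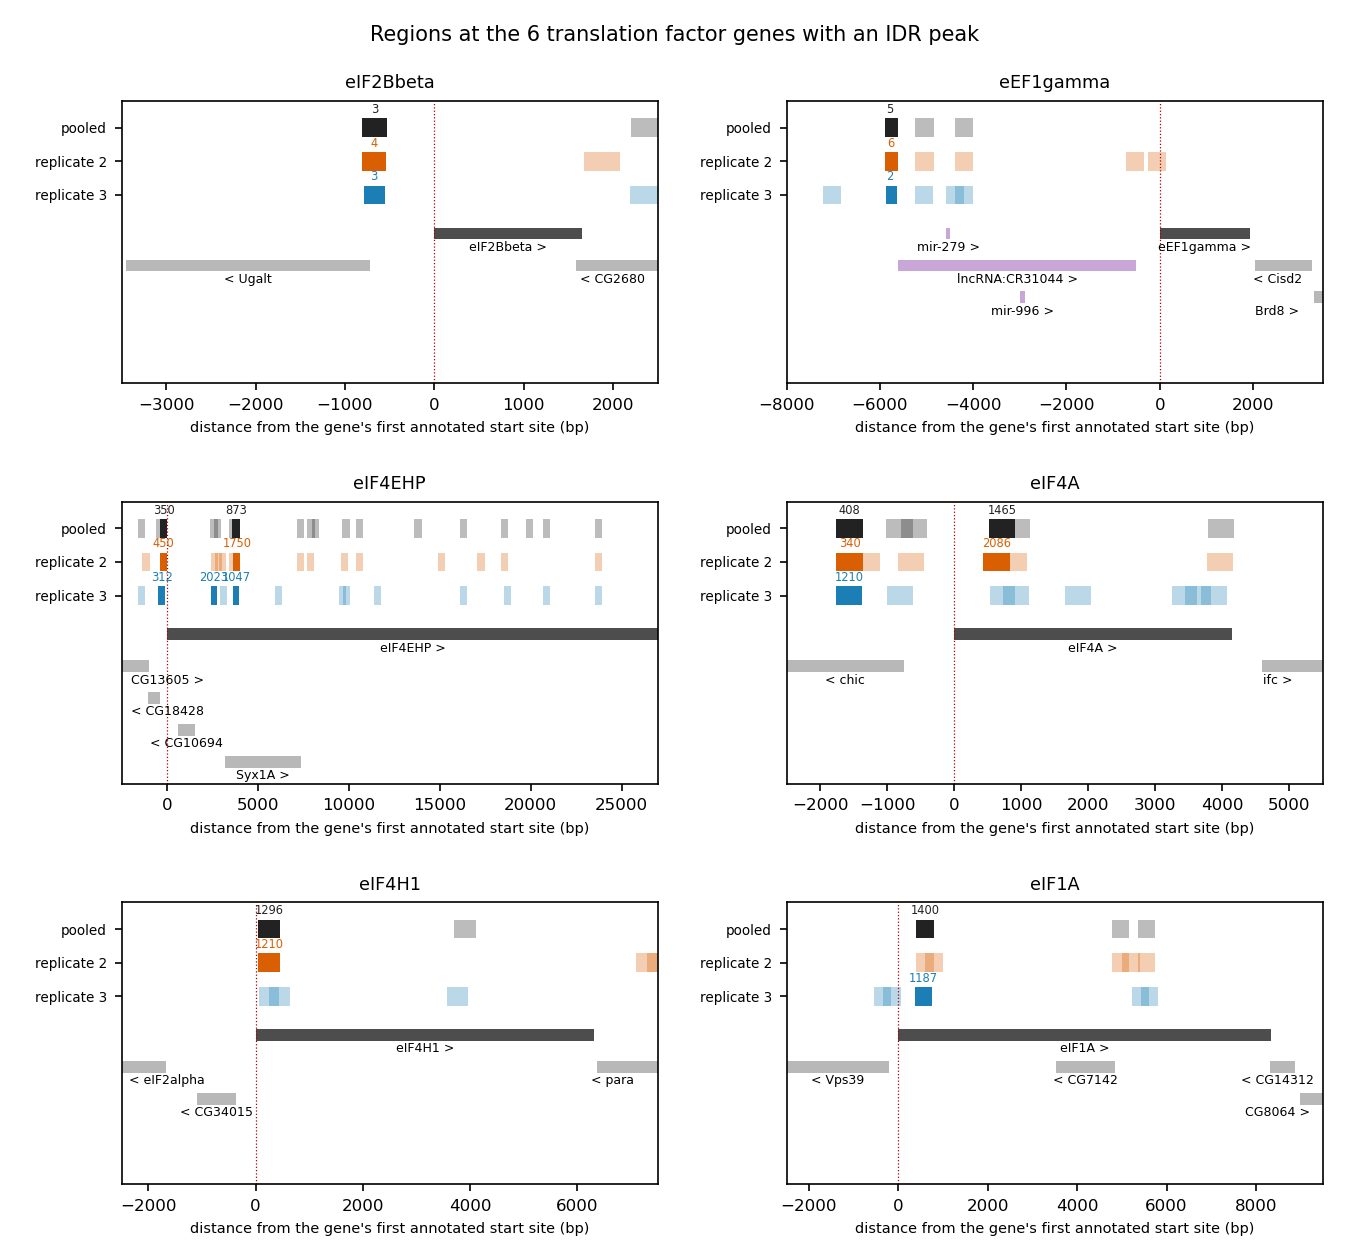
Regions of the pooled list and of each replicate at the 6 genes with an IDR peak, by distance in bp from the gene's first annotated start site, with the gene drawn from left to right. Solid bars are among the first 2133 of their list and carry their rank, pale bars are lower; genes are grey, non-coding genes purple, and all neighbouring regions in the window are drawn. The eIF2Bbeta peak (rank 3) sits at the start of Ugalt and the eEF1gamma peak (rank 5) beside the start of a long non-coding RNA.

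Among the 8 elongation factor genes, 1 had an IDR peak, against 12.5% of all genes. This gene, eEF1gamma, was nearest to the fifth strongest peak of the genome, from a distance. eEF1gamma (chr3R:29220172-29222109, plus strand) is a subunit of the complex that reloads eEF1alpha with GTP. The peak (chr3R:29214276-29214566) ranked 5 in the pooled list (534), 6 in replicate 2 (277) and 2 in replicate 3 (263). Its summit was intergenic, 5796 bp before the eEF1gamma TSS, which was the nearest protein-coding TSS. The closest protein-coding gene on the other side, Cyt-c1L, lies 10243 bp away. A non-coding gene is much closer: lncRNA:CR31044 starts 186 bp beyond the summit and holds mir-279 and mir-996, whose hairpins lie 1209 and 2808 bp away. mir-279 is known for limiting the number of CO2-sensing neurons. In the same non-coding gene lay 2 further pooled regions with a q value under 0.05 (ranks 3238 and 3668), assigned to eEF1gamma by the same rule. At the promoter of eEF1gamma itself there was no pooled region, and only replicate 2 had one, at rank 3594.

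eEF2, the translocase, had its region at the promoter, 138 bp before a TSS, at rank 2951 in the pooled list with a −log10 q of 1.65. The replicates placed it alike, at 2817 in replicate 2 and 2893 in replicate 3. eEF5, the hypusine-bearing factor also known as eIF5A, had a region 90 bp before a TSS, at rank 3923 in the pooled list. The overlapping regions ranked 3420 in replicate 2 and 6297 in replicate 3. Another replicate 3 region within 500 bp of an eEF5 TSS ranked 4159. The pooled region was assigned to ppk29 too, whose TSS lies 661 bp from that of eEF5. For eEF1alpha1, the main carrier of charged tRNA, the pooled rank was 5191, outside the q threshold with a −log10 q of 1.06. eEF1delta had a pooled region at rank 17188. eEF1alpha2, eEFSec (replicate 2 only) and eEF1beta (both replicates, ranks 5686 and 5363) had replicate regions without a pooled one.

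Neither of the 2 release factor genes had an IDR peak, against 12.5% of all genes and 22.4% of those of 5 to 20 kb. With 2 genes, a count of 0 does not set them apart from these shares. eRF3, the GTPase of termination, had a pooled region at rank 3945, 67 bp before a TSS, with a −log10 q of 1.36. It ranked 2894 in replicate 2 and 8100 in replicate 3. The TSS of SC35, a splicing factor gene transcribed the other way, lies 213 bp from that of eRF3. eRF1, which reads the stop codon, had a region 143 bp before a TSS that ranked 8585 in the pooled list, 9930 in replicate 2 and 9501 in replicate 3.

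**Figure D3:**
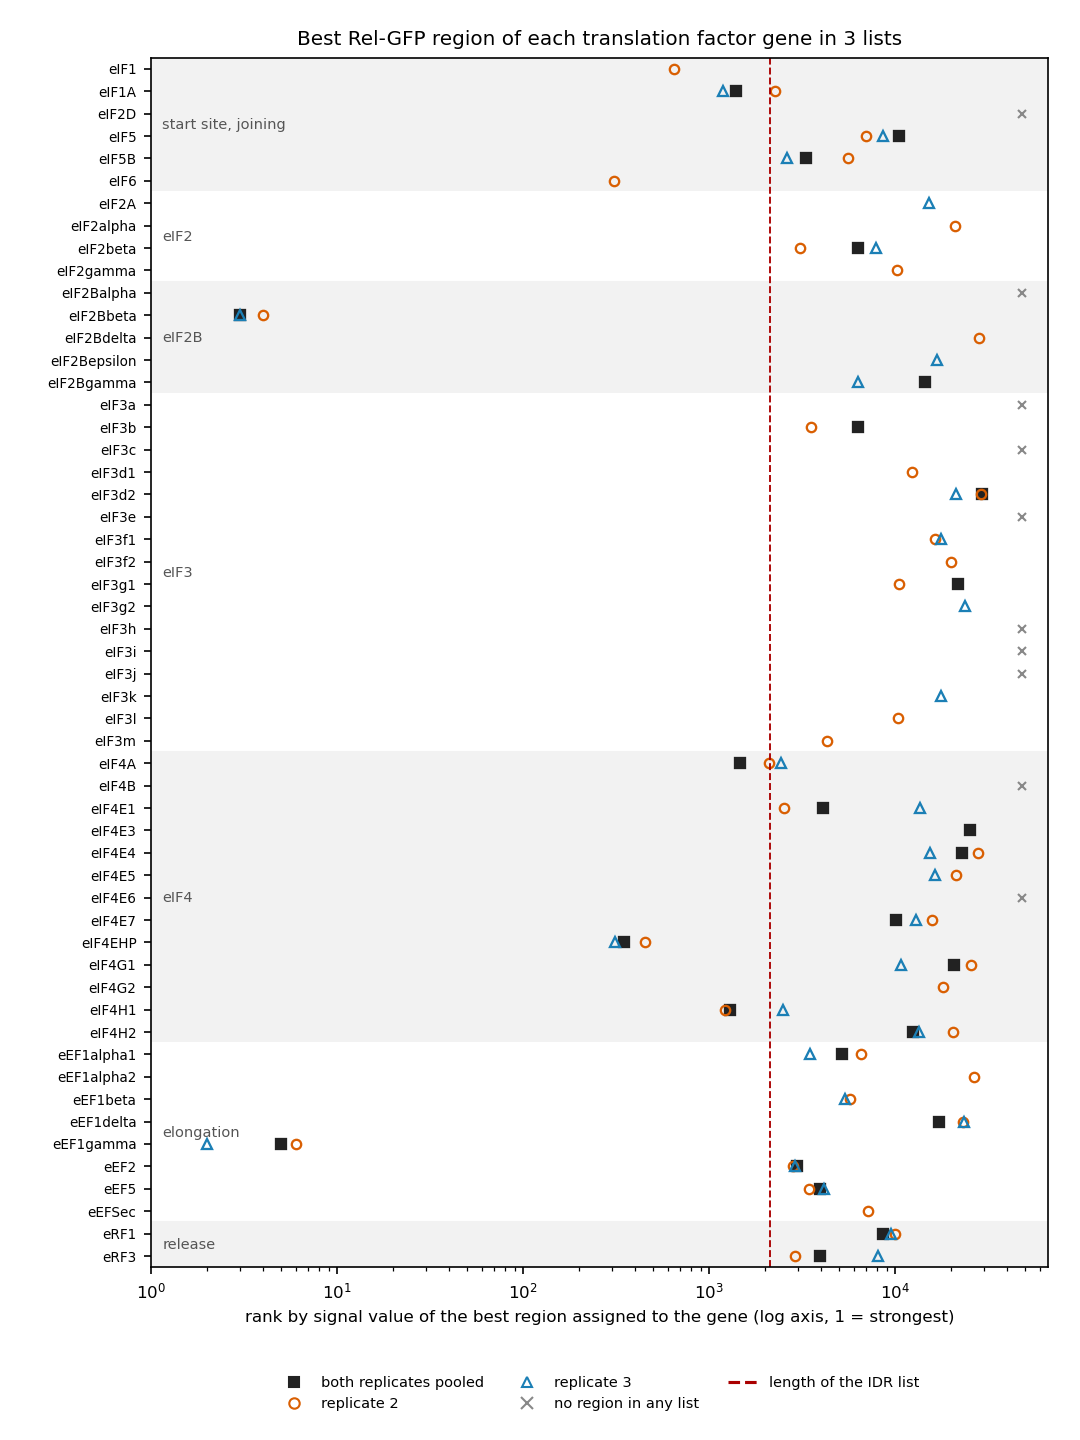
Rank of the best region of each of the 54 genes in the pooled list (squares), replicate 2 (circles) and replicate 3 (triangles), on a log axis on which 1 is the strongest, with genes grouped by role. Crosses mark the 10 genes with no region in any list, and the dashed line is the length of the IDR list, 2133. eIF2Bbeta and eEF1gamma stand far to the left of the others, and no eIF3 gene and no gene of the eIF2 trimer crosses the line. In each list, 12.5% of all protein-coding genes had a region among the first 2133.

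In all, 41 genes had neither an IDR peak, a pooled q value under 0.05 nor a region among the first 2133 of a replicate. Of these, 14 had a weaker pooled region, with best ranks from 5191 (eEF1alpha1) to 29440 (eIF3d2) and a median of 13445. Among the 54 genes, 29 had no pooled region, against 5086 of all 13945 protein-coding genes. Of these 29 genes, 19 had a region in a replicate. The 10 with none in any list were eIF2Balpha, eIF2D, eIF3a, eIF3c, eIF3e, eIF3h, eIF3i, eIF3j, eIF4B and eIF4E6. The counts of 41, 19 and 10 were not made over all genes, so whether they are unusual cannot be told.

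The replicates ranked the strongest peaks of these genes alike and often parted on the weaker ones. Of the 7 IDR peaks, 4 overlapped regions among the first 2133 of both replicates (57.1%), as did 1280 of all 2133 IDR peaks (60.0%). These 4 were the peaks at eIF2Bbeta and eEF1gamma and both peaks at eIF4EHP. With replicate lists of 4266 regions, all 7 had a partner in both, as did 1929 of all IDR peaks (90.4%). By gene, the first 2133 regions of replicate 2 reached 7 translation factor genes (13.0%, interval 5.37 to 24.9), against 12.5% of all genes. Those of replicate 3 reached 4 (7.41%, interval 2.06 to 17.9), against 12.5% of all genes. The genes eIF4A, eIF4H1, eIF1 and eIF6 were reached in replicate 2 and not in replicate 3, and eIF1A in replicate 3 and not in replicate 2.

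**Figure D4:**
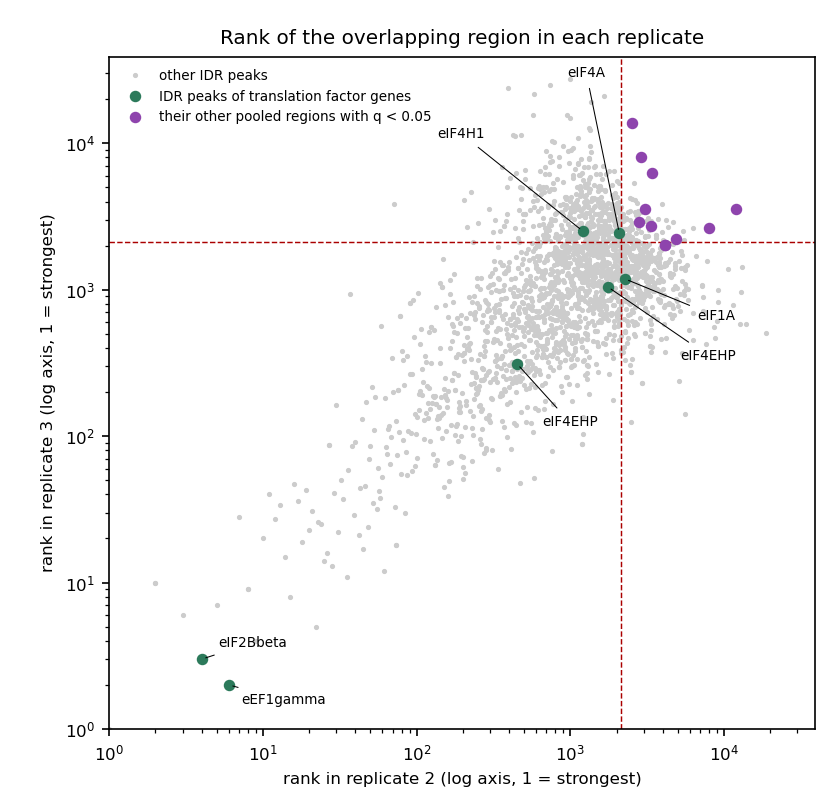
Rank of the overlapping region in replicate 2 (x) and replicate 3 (y) for each IDR peak, on log axes on which 1 is the strongest. Green points are the 7 IDR peaks of translation factor genes, purple points their further pooled regions with q under 0.05, of which 2 at eIF4EHP coincide, and grey points the other IDR peaks; dashed lines mark rank 2133. Peaks at eIF2Bbeta and eEF1gamma fall in the lower left corner, while those at eIF4H1 and eIF4A lie just above the line for replicate 3.

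At promoters, taken as the 500 bp either side of an own TSS, the replicates differed in how many translation factor genes they marked. Replicate 2 had a region of any rank there for 23 of the 54 genes (42.6%), against 40.3% of all genes. Replicate 3 had one for 16 (29.6%), against 38.9%, and the pooled list for 15 (27.8%), against 37.3%. Both replicates marked 12 promoters (22.2%, against 27.0% of all genes), replicate 2 alone 11 (20.4%, against 13.2%) and replicate 3 alone 4 (7.41%, against 11.9%). Those in replicate 2 alone were eEF1alpha2, eEF1gamma, eIF1, eIF2gamma, eIF3b, eIF3d1, eIF3g1, eIF3m, eIF4G2, eIF5 and eIF6. With 1 library on each side, these counts describe 2 libraries and were not tested.

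The summits of the 7 IDR peaks fell into several classes. Within 500 bp of any TSS were 4 summits (57.1%, interval 18.4 to 90.1), against 888 of all 2133 (41.6%). Without replicate 2, that is in the first 2133 regions of replicate 3, the order against the background turned, at 2 of 6 (33.3%), against 41.1%. Without replicate 3 it was 6 of 8 (75%), against 41.9%. Of the 7 summits, the 3 farther from a TSS were in the Syx1A 5′ UTR, in the eIF1A intron and in intergenic sequence before eEF1gamma. Of the 4 promoter summits, that assigned to eIF2Bbeta was at the start of Ugalt. In 5 of the 7 cases (eIF2Bbeta, both peaks of eIF4EHP, eIF4H1 and eIF1A) a second protein-coding gene was assigned the same peak, so a peak could not be told apart between the 2 genes.

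Windows of 100 bp either side of the summits were searched on both strands for 5 elements. These were GAGAGAG (the repeat bound by Trl, the GAGA factor), CACACACA, TATCGATA, the E-box CACGTG bound by Myc and Max, and the broad kB site of NF-kB proteins, named only. GAGAGAG was in 0 of the 7 windows, against 11.1% of all IDR windows, and CACACACA was in 1, the second eIF4EHP peak, against 9.38%. TATCGATA was in 0, against 0.938%, CACGTG in 0, against 1.92%, and the broad kB site in 0, against 0.938%. A count of 0 says only that these letters were not in these 7 windows. The GC content of the 7 windows ran from 25.4% at eIF4EHP to 56.7% at eIF4H1, with a median of 43.3%, against a median of 38.3% over all IDR windows.

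TATCGATA lay between 250 bases before and 50 bases after a TSS in 16 of the 54 genes (29.6%, interval 18 to 43.6), against 10.2% of all genes. Among genes with 1 annotated TSS it was 9 of 32 (28.1%), against 9.17%. The translation factor genes had 1.52 annotated TSSs on average, against 1.41 for all genes. The 16 genes were eEF1delta, eEF1gamma, eIF1A, eIF2A, eIF2Bbeta, eIF2alpha, eIF2gamma, eIF3a, eIF3c, eIF3f1, eIF3l, eIF4A, eIF4B, eIF4E6, eIF6 and eRF1. Of the 18 copies, 15 lay within 100 bp before a TSS. Of these 16 genes 4 had an IDR peak (25%), against 12.8% of all genes with the element. The copies in those 4 genes were 699 to 5755 bp from the summits, outside the windows searched.

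The 4 copies below show the element at genes with and without a peak. Each is 30 bases of the coding strand, read from dm6 at chr3R:29220120-29220149 (eEF1gamma), chr3R:18274452-18274481 (eIF1A), chr2L:5981701-5981730 (eIF4A) and chr3L:20348319-20348348 (eRF1). The element, in capitals, reads the same on both strands. It starts 41 bases before a TSS in eEF1gamma, 202 before in eIF1A, 52 before in eIF4A and 25 before in eRF1.
eEF1gamma: ggcctaggaaaTATCGATAtatcgccgtaa
eIF1A: atgatgatagaTATCGATAgctttagcggt
eIF4A: ggcgatcgatcTATCGATAgtcgctaatgt
eRF1: atattttaagaTATCGATAatgtcatcgga

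The TCT initiator, a start-site element known from fly genes for ribosomal proteins and translation factors, was searched as TCTTT or CCTTT starting within 5 bases of a TSS on the coding strand. Such a string, called the TCT string here, was found in 7 of the 54 genes (13.0%, interval 5.37 to 24.9), against 3.51% of all genes. The string need not span the TSS, so a match does not show an initiator. The 7 were eEF1alpha2, eEF2, eEF5, eIF3f1, eIF3i, eIF3m and eIF4A, of which only eIF4A had an IDR peak. In eEF1alpha2, eEF2, eIF3f1, eIF3i and eIF4A the string started 3 to 5 bases after the annotated TSS and so did not span it. Among genes with 1 annotated TSS it was in 2 of 32 (6.25%), against 2.35%. Over the genome, 93 of 489 genes with the string had an IDR peak (19%), against 12.3% of those without. Among the translation factor genes it was 1 of 7 (14.3%), against 5 of 47 (10.6%). Gene length and number of TSSs were not taken into account in these shares, and the difference was not tested. GAGAGAG and CACACACA were close to their background at start sites, in 5 translation factor genes (9.26%, against 9.09% of all genes) and in 4 (7.41%, against 7.11%). CACGTG was in 5 (9.26%, against 5.34%) and the broad kB site in 1, eIF3k (1.85%, against 2.88%). CACGTG was at eEF2, eIF2A, eIF2gamma, eIF3f2 and eIF4A, so that eIF4A held the E-box, TATCGATA and the TCT string together.

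Start sites with the TCT string are shown for eIF4A, which had an IDR peak, and for eEF2 and eIF3f1, which had none. Each is 25 bases of the coding strand centred on an annotated TSS of dm6, at chr2L:5981752-5981776 (eIF4A, plus), chr2L:21682104-21682128 (eEF2, minus) and chr3R:4714170-4714194 (eIF3f1, minus). Capitals mark the string, which starts 3 bases after the annotated TSS in each of them. In eIF3f1 the bases before it also hold the TATCGATA described above, in lower case here. For eIF4A the start shown is the first of 3 annotated TSSs. The summit of its IDR peak lay 712 bp after that start and 113 bp after the second TSS, which lacks the string.
eIF4A: ttgcaagatggagccTCTTTtgctt
eEF2: gctgcagcgcctcgcTCTTTcctgt
eIF3f1: gcactatcgataggcCCTTTtcttg

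**Figure D5:**
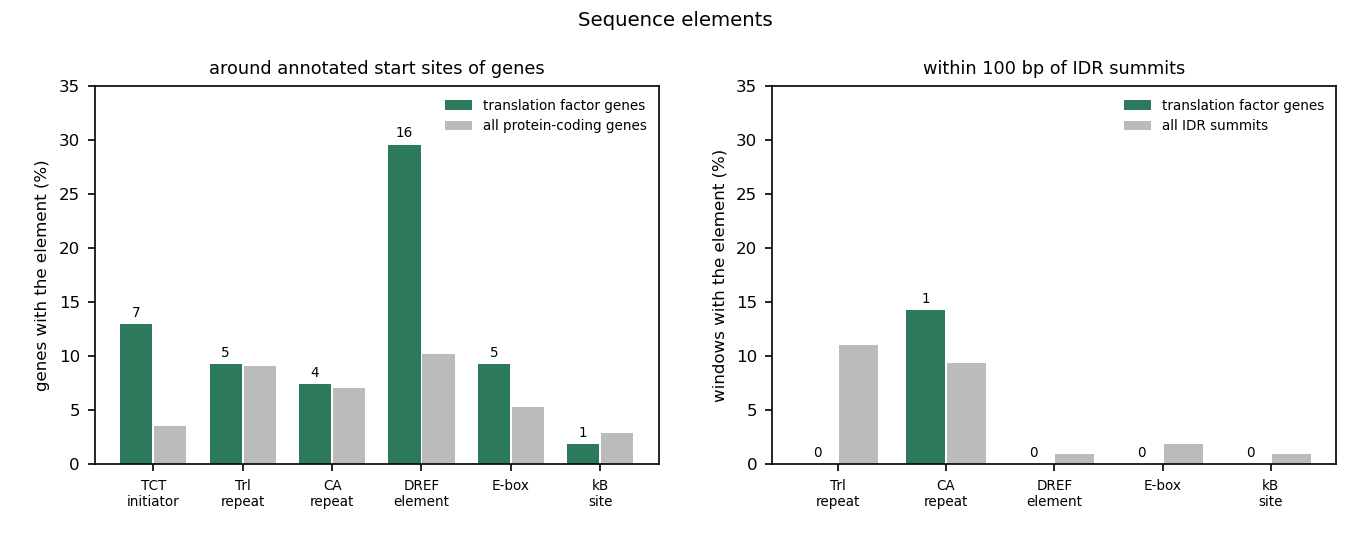
Share of genes with each element at an annotated start site (left, %) and share of IDR summit windows with it (right, %), translation factor genes in green and all protein-coding genes or all IDR summits in grey, with the counts above the green bars. The DREF element was at the start sites of 16 of the 54 genes (29.6%), against 10.2% of all genes, and in 0 of the 7 summit windows. The bars named TCT initiator count the TCT string within 5 bases of a TSS.

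Other genes of translation were taken from a list of 28 symbols. Of these, 26 were matched as further genes, 1 was eIF4EHP under another name and mEFG2 was not matched. An IDR peak was assigned to 6 of the 26, and all 6 were among the 12 kinases and other regulators of initiation, against 12.5% of all genes. None of the 5 recycling and rescue factors and none of the 9 mitochondrial factors had one. The median gene length was 7427 bp in the regulators, 2360 bp in the recycling factors and 1831 bp in the mitochondrial factors. The share of all genes with an IDR peak moves with length: 6.21% under 2 kb, 9.99% at 2 to 5 kb and 22.4% at 5 to 20 kb. The part of length in these counts was not tested.

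The 6 regulators with a peak have different roles. larp, the La-related protein that binds messages of the translation machinery, had the peak ranked 10 in the pooled list, 307 bp before a TSS, ranked 10 in replicate 2 and 20 in replicate 3. Lk6, the kinase that phosphorylates eIF4E, had the peak ranked 11 in an intron, ranked 7 in replicate 2 and 28 in replicate 3, and a further one. pAbp, the poly(A)-binding protein that contacts eIF4G, had a peak ranked 281 (775 in replicate 2 and 166 in replicate 3). Thor, the 4E-binding protein that blocks eIF4E, had a peak 44 bp before its TSS, ranked 936, with rank 627 in replicate 2 and 2755 in replicate 3. crc, the ATF4 protein whose translation responds to eIF2 phosphorylation, had 1 ranked 1404, and NAT1, an eIF4G relative, had 1 ranked 1603.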

How the data were processed

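Rel-GFP was measured by ChIP-seq in 2 libraries of 1 group. The authors deposited peak lists on dm6 and dm3. The dm6 lists were used, and the dm3 lists were not. Column 7 of each list is a signal value that the authors' peak caller gave relative to a control, and column 9 is the deposited −log10 q-value. The summit column gave positions. Per the labels, chromatin was sonicated to 200 to 800 bp. The authors called regions per replicate and on pooled reads. Depth, aligner and peak caller: not given in the sources used here.

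Genes and 19607 TSSs came from Ensembl release 115 (BDGP6 annotation 6.54), and sequence came from the RefSeq assembly of dm6. Regions were assigned to genes by summit, and replicate overlap needed 1 bp. Shares have exact Clopper-Pearson intervals at 95%, set beside the share of all protein-coding genes, with no test. Both libraries are labelled as separate biological replicates. Every gene with an IDR peak was named, then every gene with a pooled q-value under 0.05 or a region among the first 2133 of a replicate, and the others by name, count and range. Of the other translation genes, those with an IDR peak were named. Members, lists and elements were chosen with earlier results of these data known. Alternatives changed the list, threshold, assignment, overlap and window, and 2 were added after the data were seen. The assignment was tested on simulated positions. Calculations used Python 3.11.15, numpy 2.4.6, scipy 1.17.1 and matplotlib 3.10.9.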

Additional observations from a re-analysis of the deposited data

How the results depend on the processing

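The count of translation factor genes with an IDR peak, 6, was 3 among the 1066 strongest peaks and 11 with pooled q values under 0.05. It was also 3, in settings chosen after seeing the data, within 500 bp of an own TSS and for peaks among the first 2133 of both replicates. The other assignments gave 5 to 8. Leaving out a replicate meant taking the first 2133 regions of the other in place of the IDR list. It gave 4 to 7, the same counts as given by replicate above. Without replicate 2, eEF1gamma, eIF1A, eIF2Bbeta and eIF4EHP remained. Without replicate 3, eIF1A was lost and eIF1 and eIF6 were added. The share of summits within 500 bp of a TSS, 57.1%, ran from 33.3% without replicate 2 to 75% without replicate 3. Peaks found in both replicates, 4 of 7, became 7 with replicate lists of double length. Windows of 200 bp either side gave 1 match of GAGAGAG in place of 0 and 2 of CACACACA in place of 1. No paired analysis was possible because the design has 1 group. With 7 peaks and unknown depth, each count rests on a few regions.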
